A study of Mus musculus with 40 samples.

Results

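Cxcl1, Cxcl2, Cxcl3 and Cxcl5 were described across 2 mouse models of triple-negative breast cancer and their treatment groups. They are 4 of the 14318 genes in the deposited expression table, chosen by symbol as the CXC chemokines known to attract mouse neutrophils, and all 4 are listed there. The table holds 39 primary tumors in 8 groups, 19 tumors grown from 4T1 cells and 20 grown from 66cl4 cells. Each model had an untreated group, an anti-PD-1 group (200 µg, an antibody that blocks the PD-1 checkpoint receptor of T cells), a chitin group (1 mg, particles used to block chitinase-like proteins) and a chitin + anti-PD-1 group with both agents at the same doses. There were 5 tumors per group but 4 in untreated 4T1, whose tumor 3 is not analysed here because the authors removed it for RNA degradation.

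All mice were wild-type female BALB/c that had been mated at 8 w of age, and their mammary ducts were inoculated with tumor cells after the pups had been weaned, while the dams were still lactating. Agents were injected intraperitoneally from 3 w after inoculation, chitin every 3 d, and all tumors were collected at 5 w. Both cell lines carried firefly luciferase, and each model rests on a single transplanted line, so that a difference between the models belongs to these lines with their inoculation. The labels name no batch. Whole tumors were sequenced, so that fewer cells of a type and less mRNA per cell cannot be told apart for any gene below.

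The labelled tumor type was compared with markers of epithelium. Krt8, a keratin of luminal epithelium, was high in both models, with medians of 7560 normalized counts (reads scaled by each tumor's size factor) in 4T1 and 4260 in 66cl4. Epcam, an epithelial surface protein, had a median of 6730 in 4T1 but 26.2 in 66cl4 tumors, and Cdh1, which encodes E-cadherin, had 2580 and 42.6. Krt18, the keratin that pairs with Krt8, ranged from 40.5 to 300 normalized counts in 66cl4 and from 3830 to 15000 in 4T1 tumors. Of these 4 epithelial genes, Krt8 alone was thus high in 66cl4 tumors. Sequencing depth ranged from 5105898 to 14800352 reads in genes per tumor.

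CXC chemokines with an ELR motif before their paired cysteines are small secreted proteins that bind the receptor CXCR2 on neutrophils and draw these cells out of the blood and into tissue. Epithelial cells, fibroblasts, endothelial cells, macrophages and neutrophils themselves can make them. Their genes are induced quickly by interleukin-1, tumor necrosis factor, interleukin-17 and bacterial products through NF-κB, and their mRNAs are short-lived because RNA-binding proteins such as tristetraprolin and regnase-1 promote their decay. CXCL1 (KC) and CXCL2 (MIP-2) are the main early attractants of mouse neutrophils, CXCL3 is a close relative of both, and CXCL5 (LIX) is known from epithelial cells and platelets.

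The members lie in a single cluster on the plus strand of mouse chromosome 5 that spans 146579 bp (GENCODE M21, mm10). Cxcl5 (Entrez 20311, chr5:90759360-90761624) came first, then Cxcl3 (330122, chr5:90786103-90789600), Cxcl1 (14825, chr5:90891241-90893115) and Cxcl2 (20310, chr5:90903871-90905938). Each coding transcript has 4 exons, apart from 1 of the 2 Cxcl2 transcripts, which has 3. Between them lie Ppbp, Pf4 and Cxcl15, of which the expression table lists Pf4.

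The stretch just upstream of the start site is shown for the 3 members in the RefSeq promoter table (GRCm38.p6), because the same elements recur there. Capitals mark the longest run of letters that all 3 windows share, GGGAATTTCCC, which is a κB-type sequence of the kind that NF-κB dimers bind, and the next longest, ATAAAAGG, which resembles a TATA box. Both were read off the 3 windows. Each window has 90 bases, runs 5′ to 3′ on the plus strand and ends before the earlier of the RefSeq and GENCODE starts. For Cxcl3 this is the RefSeq start, which lies before the GENCODE start given above. The windows are chr5:90891151-90891240 for Cxcl1, chr5:90903781-90903870 for Cxcl2 and chr5:90786011-90786100 for Cxcl3.
Cxcl1: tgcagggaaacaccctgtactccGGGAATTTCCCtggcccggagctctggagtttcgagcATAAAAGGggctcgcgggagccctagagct
Cxcl2: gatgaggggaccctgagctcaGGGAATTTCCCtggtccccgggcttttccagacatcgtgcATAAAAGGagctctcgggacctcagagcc
Cxcl3: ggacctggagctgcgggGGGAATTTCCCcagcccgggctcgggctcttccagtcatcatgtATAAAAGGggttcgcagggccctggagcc

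Counted back from the base before the same start, the κB-type element lay at -67 to -57 in Cxcl1, -69 to -59 in Cxcl2 and -73 to -63 in Cxcl3. The TATA-like element lay at -30 to -23 in Cxcl1 and at -29 to -22 in Cxcl2 and Cxcl3. Of all 32851 RefSeq promoter windows of 300 bases, 14 (0.0426%) held GGGAATTTCCC on either strand, and these include the 3 members whose windows gave the letters. ATAAAAGG was found in 577 windows (1.76%) on either strand. No GGGAATTTCCC was found in the windows of the neighbours Pf4, Ppbp and Cxcl15. These matches describe letters, not binding.

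The transcripts are related but distinct. Cxcl2 and Cxcl3 mRNAs were the closest pair, with 66.8% identical positions in an alignment of Cxcl3 with the shorter Cxcl2 transcript and a longest identical run of 110 bases. Cxcl1 shared at most 23 identical bases in a row with either, and Cxcl5 at most 12 with any member. Per the paper's methods, each read was longer than the stretch that Cxcl2 and Cxcl3 share, and reads were counted by genomic location. Whether reads that overlap this stretch were placed in the wrong gene was not tested.

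The models differed first in which chemokine led. Levels of different genes were compared as normalized counts per kb of coding-transcript exon. Within the summed level of the 4 members, Cxcl1 made up 67.9% ± 15.7 (SD, n = 19) in 4T1 tumors and 21.3% ± 4.39 (n = 20) in 66cl4 tumors. Cxcl5 made up 13.8% ± 10.5 in 4T1 and 53.7% ± 9.54 in 66cl4.

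Cxcl1 had the highest level of the members in 18 of 19 4T1 tumors, and Cxcl5 in all 20 66cl4 tumors. The exception was anti-PD-1-treated 4T1 tumor 3, in which Cxcl5 made up 48.8% and Cxcl1 33.0%. Cxcl2 held a similar share in both models, 12% ± 7.8 in 4T1 and 10.8% ± 5.52 in 66cl4, and Cxcl3 rose from 6.31% ± 3.81 of the sum in 4T1 to 14.1% ± 4.3 in 66cl4. With the shorter Cxcl2 transcript as its length, the share of Cxcl2 was 18.1% and 16.7%, and the leading gene of each model had the shares 63.4% (Cxcl1, 4T1) and 50.3% (Cxcl5, 66cl4). These shares were not tested.

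**Figure D1:**
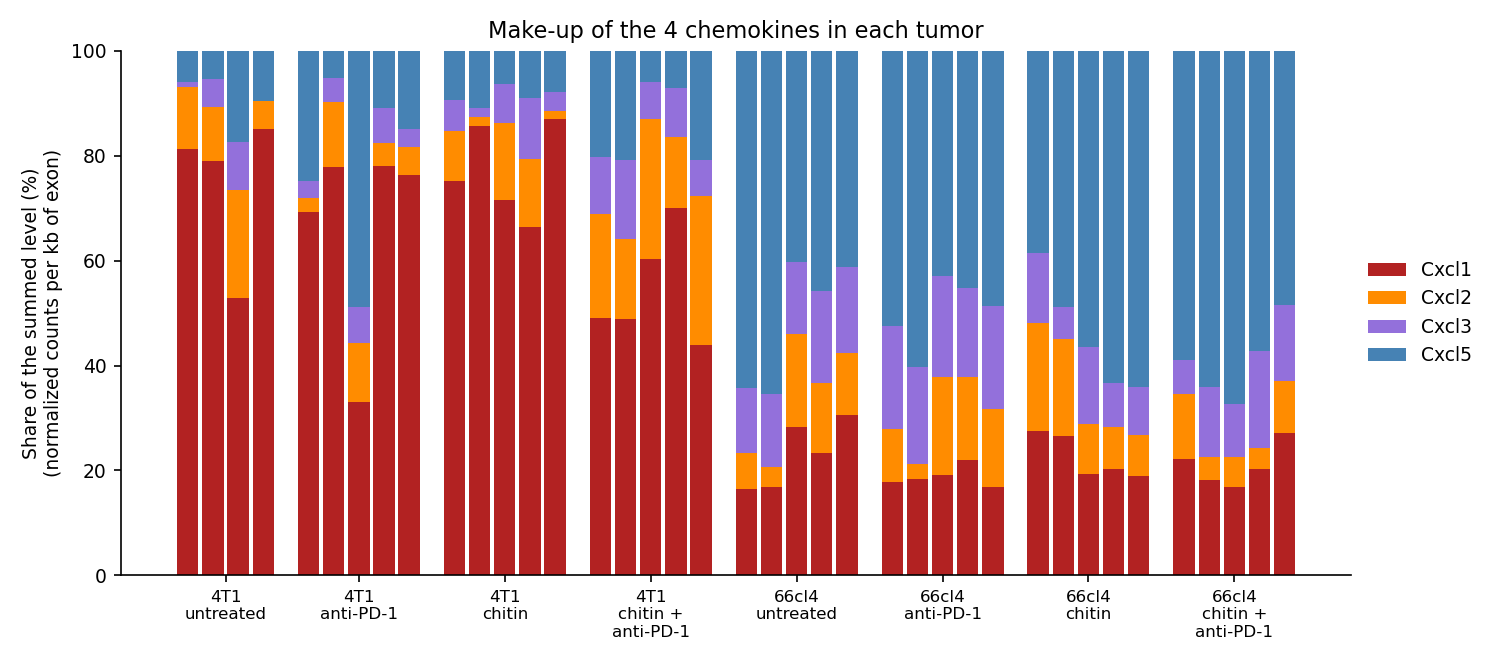
Each bar is a tumor, and its coloured parts are the shares of Cxcl1, Cxcl2, Cxcl3 and Cxcl5 in their summed level, in % of normalized counts per kb of exon, grouped by model and treatment. Cxcl1 (red) is the largest part in 18 of 19 4T1 tumors and Cxcl5 (blue) in 20 of 20 66cl4 tumors.

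Cxcl1 was higher in 4T1 and Cxcl5 and Cxcl3 were higher in 66cl4, while no difference was detected for Cxcl2. Group differences below are on the scale of the deposited variance-stabilized (VST) values, which is close to log2 for high counts and compressed for low ones, so that it understates the folds of these genes. Tests used limma, and p values carry the Benjamini-Hochberg adjustment for all 14318 genes. The models differed widely: 78.8% of all genes passed an adjusted p of 0.05 in this comparison, 40.8% higher in 4T1 and 38% lower. The share of members that passed, 3 of 4, is close to this background.

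Cxcl5 differed most. In 66cl4 tumors it had 72.5, 180 and 587 normalized counts (lowest, median and highest), and in 4T1 tumors 9.48, 28.1 and 977. In 17 of the 19 4T1 tumors the value lay below every 66cl4 tumor, and in 1 it lay above them all. The medians differed 6.4-fold. Averaged over the 4 treatment groups, 4T1 tumors differed from 66cl4 tumors by -1.12 VST units (SE 0.188, adjusted p = 2.04e-06), or by -2.43 on a log2(normalized count + 1) scale.

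Cxcl1 had 11.5, 106 and 1430 normalized counts in 4T1 tumors and 21.3, 47.4 and 91.4 in 66cl4 tumors. Of the 4T1 tumors, 13 lay above every 66cl4 tumor, and 1 lay below them all. The difference was 0.76 VST units (SE 0.194, adjusted p = 0.000676), with medians 2.24-fold apart.

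Cxcl3 had 9.83, 31.0 and 84.7 normalized counts in 66cl4 tumors and 0, 10.3 and 335 in 4T1 tumors. Its 4T1 values came from 0 to 409 reads, so that counting error is a large part of them. The ranges overlapped, with 9 of 19 4T1 tumors below every 66cl4 tumor. The difference of -0.34 VST units (SE 0.129) passed the threshold (adjusted p = 0.0163), and it was -1.56 on the log2(normalized count + 1) scale.

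Cxcl2 had almost the same median in both models, 42.6 normalized counts in 4T1 and 42.7 in 66cl4, but a wider range in 4T1 (3.74 to 1130) than in 66cl4 (14.7 to 108). Of the 4T1 tumors, 3 lay above and 8 lay below every 66cl4 tumor. The difference was 0.09 VST units (95% confidence interval -0.30 to 0.47, adjusted p = 0.679), and its sign turned on other scales.

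A single tumor, described below as chitin + anti-PD-1-treated 4T1 tumor 1, had the highest value of all 39 tumors for each member. Without it the differences between models were 0.61 for Cxcl1, -0.05 for Cxcl2, -0.45 for Cxcl3 and -1.27 for Cxcl5, and the genes that passed were again Cxcl1 (adjusted p = 0.000125), Cxcl3 (1.46e-05) and Cxcl5 (2.24e-11).

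In untreated tumors alone, where 55.8% of all genes passed (28.7% higher in 4T1 and 27.1% lower), Cxcl5 and Cxcl3 were higher in 66cl4. Untreated 66cl4 tumors had 587, 384, 108, 125 and 203 normalized counts of Cxcl5, and untreated 4T1 tumors had 30.7, 28.1, 51.0 and 19.7. The groups did not overlap, and the difference was -1.47 VST units (SE 0.393, adjusted p = 0.00188). Cxcl3 had 73.8, 52.7, 23.7, 30.9 and 52.1 in untreated 66cl4 tumors and 3.55, 18.8, 17.3 and 0 in untreated 4T1 tumors, also without overlap (-0.70, SE 0.27, adjusted p = 0.028). The Cxcl3 call was lost without untreated 4T1 tumor 1 (adjusted p = 0.0638) or tumor 5 (0.115) or untreated 66cl4 tumor 1 (0.0671).

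Cxcl1 had 254, 252, 93.8 and 106 normalized counts in untreated 4T1 tumors, each above the highest untreated 66cl4 tumor at 91.4. Its difference of 0.73 VST units (SE 0.405) did not pass (adjusted p = 0.125) with the spread estimated over all 39 tumors. It passed without chitin + anti-PD-1-treated 4T1 tumor 1 (adjusted p = 0.0251) and in a fit to the untreated groups alone (adjusted p = 0.0115). Cxcl2 overlapped widely, with 72.1, 64.1, 72 and 13.1 in untreated 4T1 tumors and 26.4 to 72.6 in untreated 66cl4 tumors, and its difference was -0.01 (95% confidence interval -0.81 to 0.79).

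**Figure D2:**
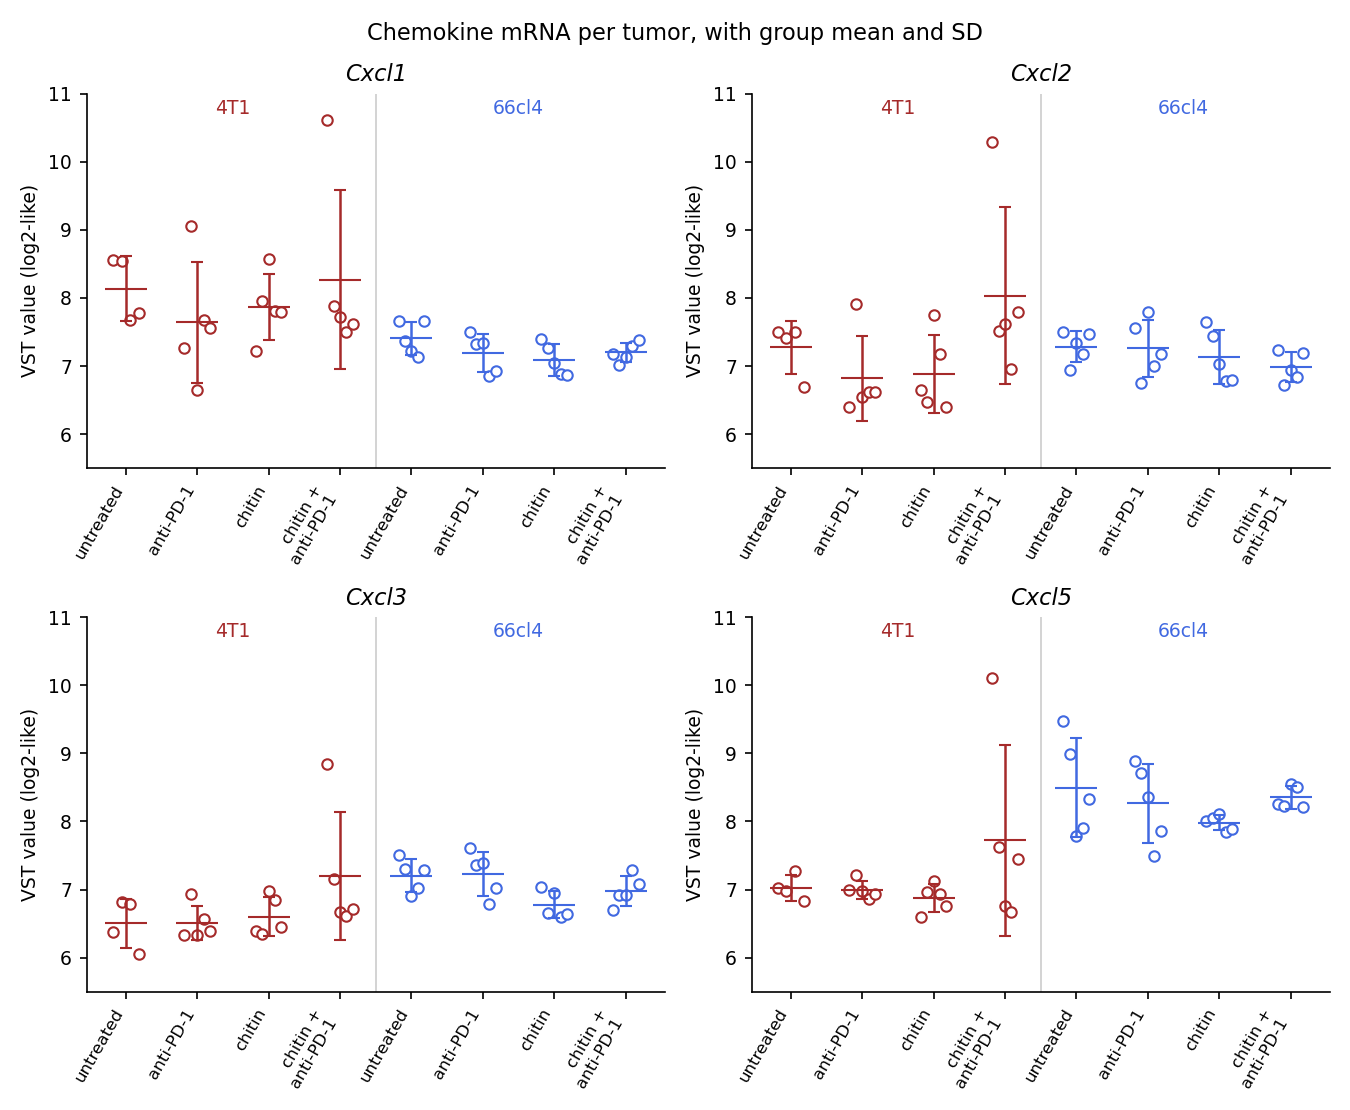
Each circle is a tumor, with its VST value (log2-like scale, 6.05 stands for 0 reads) on the vertical axis, and the bars are the group mean with the SD, for the 4 treatment groups of 4T1 (red) and 66cl4 (blue). Cxcl5 is higher in 66cl4 and Cxcl1 in most 4T1 tumors, and a single chitin + anti-PD-1-treated 4T1 tumor stands at the top of each panel, at 10.61 for Cxcl1.

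Markers of other cells differed between the models beside the chemokines, as did 78.8% of all genes (40.8% higher in 4T1 and 38% lower). These shares are the background for the counts of each gene list here and in the next paragraphs. Of the 12 listed neutrophil markers, 11 were higher in 4T1, and their summed level ranged from 1890 to 11600 normalized counts in 4T1 and from 1250 to 3110 in 66cl4. Much of the sum in 66cl4 was Mmp9, which had 584 to 2330 normalized counts there and 212 to 5220 in 4T1. All 6 macrophage markers were lower in 4T1 (4140 to 27100 against 22000 to 40400), and all 6 epithelial markers were higher (13800 to 50100 against 3370 to 6020). Of 5 fibroblast markers, 2 were higher and 2 lower in 4T1 (sums of 3910 to 117000 against 5240 to 12000). Of 4 endothelial markers 3 were higher in 4T1, as were 4 of 5 markers of skeletal muscle and 4 of 4 of adipocytes. Ly6g, the defining surface marker of mouse neutrophils, is not in the table. The part of these cells in the chemokine differences was not tested.

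Both receptor genes in the table were higher in 4T1 tumors. Cxcr2, the signalling receptor for all 4 chemokines, had medians of 65.0 normalized counts in 4T1 and 21.2 in 66cl4 (0.68 VST units, adjusted p = 3.81e-10). Ackr1, a decoy receptor on red cells and venules that takes up chemokines without signalling, was low in both models, with medians of 11.8 and 2.38 (0.35 VST units, adjusted p = 0.000538). Cxcr1 is not listed.

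The 15 listed genes of the inducing route moved unevenly, with 8 higher in 4T1, 1 lower and 6 that did not pass. Of all genes, 40.8% were higher and 38% lower. Il1a and Il1b, which encode both forms of interleukin-1, were higher by 1.27 (adjusted p = 3.17e-10) and 1.49 VST units (1.36e-11), with Il1b medians of 558 and 150 normalized counts. Il1r1, their signalling receptor, was higher by 2.005 VST units (adjusted p = 1.11e-21). Tnf was the member of the list that was lower, by -0.09 VST units (adjusted p = 0.0454). Nfkbia and Nfkbiz, inhibitor and co-activator of NF-κB, differed by 0.03 and 0.12 and did not pass. Il17a and Il17f are not listed.

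Of 6 genes that control the decay or stability of such mRNAs, 3 were higher in 4T1, 1 was lower and 2 did not pass, beside 40.8% higher and 38% lower of all genes. Zc3h12a, which encodes regnase-1, was higher by 0.50 VST units (adjusted p = 8.01e-07), and Zfp36, which encodes tristetraprolin, differed by -0.13 (adjusted p = 0.149). Elavl1, a stabilizing factor also called HuR, was higher by 0.92 (adjusted p = 1.18e-21).

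All 3 genes for neutrophil growth factors and their receptor were higher in 4T1, as were 40.8% of all genes. Csf3, which encodes the granulocyte colony-stimulating factor, ranged from 74.0 to 887 normalized counts in 4T1 and from 0 to 2.85 in 66cl4, without overlap (2.18 VST units, adjusted p = 2.35e-15). Csf2 differed by 0.49 (adjusted p = 2.84e-12) and Csf3r by 0.27 (adjusted p = 0.00842).

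Among the other CXC chemokines, 5 of 8 listed genes were higher in 4T1 and 3 were lower, beside 40.8% and 38% of all genes. Pf4, a non-ELR chemokine of platelets and macrophages whose gene lies between Cxcl5 and Cxcl3, had medians of 59.1 normalized counts in 4T1 and 440 in 66cl4 (-1.74 VST units, adjusted p = 6.01e-19). Cxcl12, a stromal chemokine, was lower by -2.75 (adjusted p = 1.61e-11), and Cxcl14 was higher by 3.06 (1.49e-15).

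Treatment with chitin, anti-PD-1 or both was compared with untreated tumors within each model. None of these comparisons called a member or any other gene: 0% of the 14318 genes passed in each of the 8 comparisons by limma, and limma-voom on the recovered reads called 0 genes as well. In limma, between 367 and 1273 genes had an unadjusted p under 0.05 in the 4T1 comparisons and between 767 and 2238 in the 66cl4 comparisons, and in limma-voom between 299 and 1115 and between 622 and 2130. With no true difference, a share of about 0.05 of the 14318 genes would be expected under that value. Leaving out 1 tumor raised the number of genes that passed the adjusted threshold from 0 in some cases, to 269 for the chitin-containing 66cl4 groups and 25 for chitin in 66cl4 (both without untreated tumor 3) and to 80 for anti-PD-1 in 4T1 (without anti-PD-1-treated tumor 2), but no member passed in a treatment comparison without any 1 tumor, with tumor weights or with the tumor number as a block. The values below are therefore a description.

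**Figure D3:**
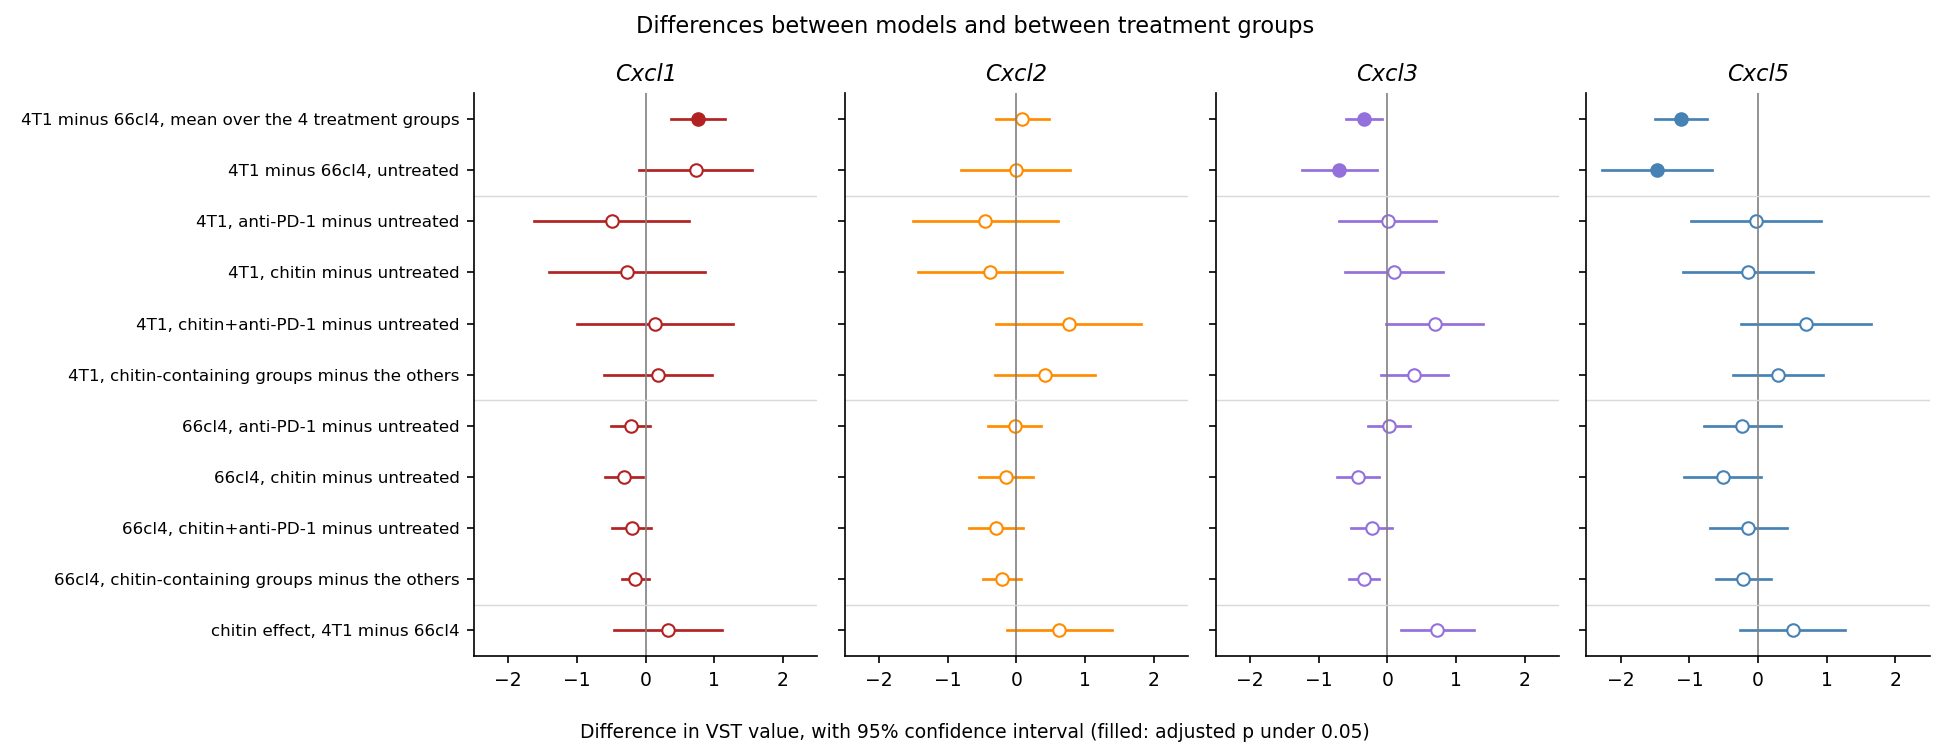
Points are differences in VST value for each member and comparison, lines are 95% confidence intervals, and filled points passed an adjusted p of 0.05. Filled points occur in the comparisons of 4T1 with 66cl4, and the intervals of the 4T1 treatment comparisons are wider than those of 66cl4.

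In 66cl4 tumors all 4 members had a lower mean with chitin, with differences of -0.52 for Cxcl5, -0.43 for Cxcl3, -0.32 for Cxcl1 and -0.15 for Cxcl2, none of which passed. Chitin-treated 66cl4 tumors had 31.9, 12.1, 26.8, 9.83 and 11.4 normalized counts of Cxcl3, and 3 of these 5 lay below every untreated tumor. The difference from untreated tumors was -0.43 VST units (SE 0.145), with an unadjusted p of 0.00833 in limma and an adjusted p of 0.264. With chitin + anti-PD-1 the values were 13.4, 24.4, 24.8, 51.1 and 34.8 (-0.23, adjusted p = 0.61), and with anti-PD-1 alone 84.7, 58.7, 60.6, 17.5 and 31.0 (0.03, adjusted p = 0.992).

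Over both chitin-containing groups against the others, the 66cl4 differences were -0.34 for Cxcl3 (adjusted p = 0.144), -0.21 for Cxcl5 (0.626), -0.21 for Cxcl2 (0.463) and -0.15 for Cxcl1 (0.458), where 48.5% of all genes were lower. Chitin-containing 66cl4 libraries were deeper, with a mean of 9901574 reads against 6446900. At equal depth Cxcl3 differed by -0.35 (adjusted p = 0.15). The summed macrophage markers were 22000 to 31600 in untreated and 32000 to 36500 in chitin-treated 66cl4 tumors, without overlap but nearly touching. Of the 6 macrophage markers, 0 passed in this comparison, as did 0% of all genes, and the sums were not tested. Summed neutrophil markers overlapped (1690 to 2650 and 1250 to 2810). Of the neutrophil sums, Mmp9 alone made up 1340 to 2140 normalized counts in untreated and 839 to 2330 in chitin-treated tumors. The part of these cells in the chemokine values was not tested.

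Cxcl1 in 66cl4 had 91.4, 59.6, 45.7, 38.6 and 90.8 normalized counts in untreated and 61.4, 49.1, 33.1, 22.3 and 22.1 in chitin-treated tumors, of which 3 lay below every untreated tumor. The difference was -0.32 VST units (SE 0.134, adjusted p = 0.361). Its values were 71.9, 54.9, 57.0, 21.3 and 25.1 with anti-PD-1 and 42.8, 31.0, 38.6, 52.4 and 60.6 with both agents, inside or below the untreated range.

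Values of Cxcl5 in 66cl4 lay closer together in the chitin-containing groups than in the others. The 5 chitin-treated tumors lay between 115 and 160 and the 5 with both agents between 180 and 255, whereas untreated tumors ran from 108 to 587 and anti-PD-1-treated tumors from 72.5 to 349. The SD of the VST values was 0.11 with chitin and 0.17 with both agents, against 0.72 in untreated and 0.58 in anti-PD-1-treated tumors. For Cxcl2 the SDs were 0.39 with chitin and 0.22 with both agents, against 0.23 in untreated and 0.42 in anti-PD-1-treated tumors. No test of spread was made. The difference of chitin-treated from untreated tumors was -0.52 (SE 0.269, adjusted p = 0.483), and it was -0.27 without untreated tumor 1, which had 587.

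Cxcl2 in 66cl4 overlapped in all groups, from 26.4 to 72.6 in untreated, 16.1 to 108 in anti-PD-1-treated, 17 to 89.8 in chitin-treated and 14.7 to 47.0 in combination-treated tumors. Its difference from untreated tumors was -0.03, -0.15 and -0.30 VST units in the same order of treatments, with adjusted p from 0.601 to 0.994.

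In 4T1 tumors the chemokines spread so widely within groups that treatment differences had wide intervals. Cxcl2 had 3.85, 127, 7.68, 10.2 and 10.5 normalized counts with anti-PD-1, where 4 of 5 tumors lay below every untreated tumor and 1 lay above, and 11.4, 5.55, 103, 42.6 and 3.74 with chitin. With both agents it had 1130, 75.0, 86.0, 27.2 and 108, of which 4 lay above every untreated tumor. The differences from untreated tumors were -0.46, -0.39 and 0.76 VST units (SE 0.502 each), and none passed (adjusted p from 0.795 to 1).

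Cxcl1 in 4T1 had 50.1, 408, 11.5, 93.0 and 78.7 normalized counts with anti-PD-1, 45.5, 132, 258, 112 and 110 with chitin, and 1430, 123, 99.9, 72.2 and 86.3 with both. Anti-PD-1-treated tumors held both the lowest value and, apart from the tumor at 1430, the highest. The differences were -0.50, -0.27 and 0.13 VST units (SE 0.541 each).

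Cxcl5 in 4T1 was the steadiest member outside the combination group, at 29.6, 45.5, 28.2, 21.3 and 25.5 with anti-PD-1 and 9.48, 27.8, 37.9, 25.4 and 16.2 with chitin. Of these 10 tumors, 2 chitin-treated tumors lay below the untreated range and the others inside it. With both agents it had 977, 86.5, 16.4, 12.2 and 67.6, 3 above and 2 below every untreated tumor. The difference of the last group was 0.70 VST units (SE 0.453, adjusted p = 1). Cxcl3 showed 335, 40.4, 12.6, 10.3 and 14.0 with both agents, 2.57, 25.4, 2.56, 8.53 and 3.75 with anti-PD-1, and 3.79, 2.78, 28.5, 20.7 and 4.99 with chitin. It overlapped the untreated tumors in each group (0.69, 0.01 and 0.10 VST units).

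Combination-treated 4T1 tumors had the highest mean of all 8 groups for Cxcl1 (8.27 ± 1.32 VST units, SD, n = 5) and Cxcl2 (8.04 ± 1.3). Without tumor 1 the means were 7.68 for Cxcl1, below the untreated (8.14) and chitin-treated (7.87) 4T1 groups, and 7.47 for Cxcl2, still the highest, with untreated 66cl4 tumors next at 7.29. Without it the differences from untreated tumors were -0.46 for Cxcl1, 0.20 for Cxcl2, 0.28 for Cxcl3 and 0.10 for Cxcl5, and over both chitin-containing groups they were -0.11, 0.13, 0.19 and -0.01 in place of 0.18, 0.42, 0.39 and 0.29.

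Ordered by group mean, Cxcl1 was higher in all 4 4T1 groups than in any 66cl4 group, and Cxcl5 was higher in all 4 66cl4 groups than in any 4T1 group. Of the 28 gaps between neighbours in the orders of the 4 members, 1 was larger than the pooled SD of the groups beside it, that of Cxcl1 between untreated and combination-treated 66cl4 tumors (0.21 against an SD of 0.20).

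The change with chitin was then compared between the models, below called the chitin effect between models. Here this change is that of both chitin-containing groups against the untreated and anti-PD-1 groups, so the combination groups enter it. In this comparison 14 genes (0.0978%) passed, 3 of them higher in 4T1 (0.021%) and 11 lower (0.0768%). An unadjusted p under 0.05 in limma was found for 1887 genes. No member passed. The change with chitin in 4T1 minus that in 66cl4 was 0.73 VST units for Cxcl3 (SE 0.259, adjusted p = 0.191), 0.63 for Cxcl2, 0.50 for Cxcl5 and 0.33 for Cxcl1. Without combination-treated 4T1 tumor 1 it was 0.53 (Cxcl3, adjusted p = 0.171), 0.34, 0.20 and 0.04 in that order. With weights estimated for each tumor, Cxcl3 passed (0.75, adjusted p = 0.0224) among 1004 genes. The count of all genes ran from 0 without untreated 4T1 tumor 5 to 677 without anti-PD-1-treated 4T1 tumor 2, and no member passed without any 1 tumor.

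The tumor at the top of every chemokine plot, chitin + anti-PD-1-treated 4T1 tumor 1, had 1430 normalized counts of Cxcl1, 1130 of Cxcl2, 335 of Cxcl3 and 977 of Cxcl5, from 1748, 1377, 409 and 1195 reads. The highest of the other 18 4T1 tumors reached 408, 127, 40.4 and 86.5. Ranked by the difference from the mean of the other 4T1 tumors over all 14318 genes, Cxcl2 was in place 2, Cxcl5 in place 3, Cxcl1 in place 5 and Cxcl3 in place 8, with differences of 3.21, 3.11, 2.78 and 2.24 VST units.

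Genes around the chemokines were high in the same tumor. S100a9 and S100a8, which encode the calprotectin subunits of neutrophils, were in places 1 and 4, Il1a in place 7, Il1b in place 14, Csf3 in place 22 and Cxcr2 in place 55. Il1b had 2390 normalized counts against at most 937 in the other 4T1 tumors, and Cxcr2 had 288 against at most 173. Tnf (23.7) and Il6 (10.6) lay inside the range of the others.

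The summed neutrophil markers of this tumor were 11600 normalized counts, the highest of the 39 tumors, and its macrophage markers were 4140, the lowest. Its fibroblast markers, at 3910, were also the lowest of the 39 tumors, against a median of 37100 in 4T1 and a lowest value of 5240 in 66cl4. Its epithelial markers (28300) lay inside the 4T1 range. Cxcl14, a chemokine that was higher in 4T1 than in 66cl4 tumors, had 730 normalized counts, below the lowest of the other 4T1 tumors at 1340. The part of these cells in its chemokine values was not tested.

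**Figure D4:**
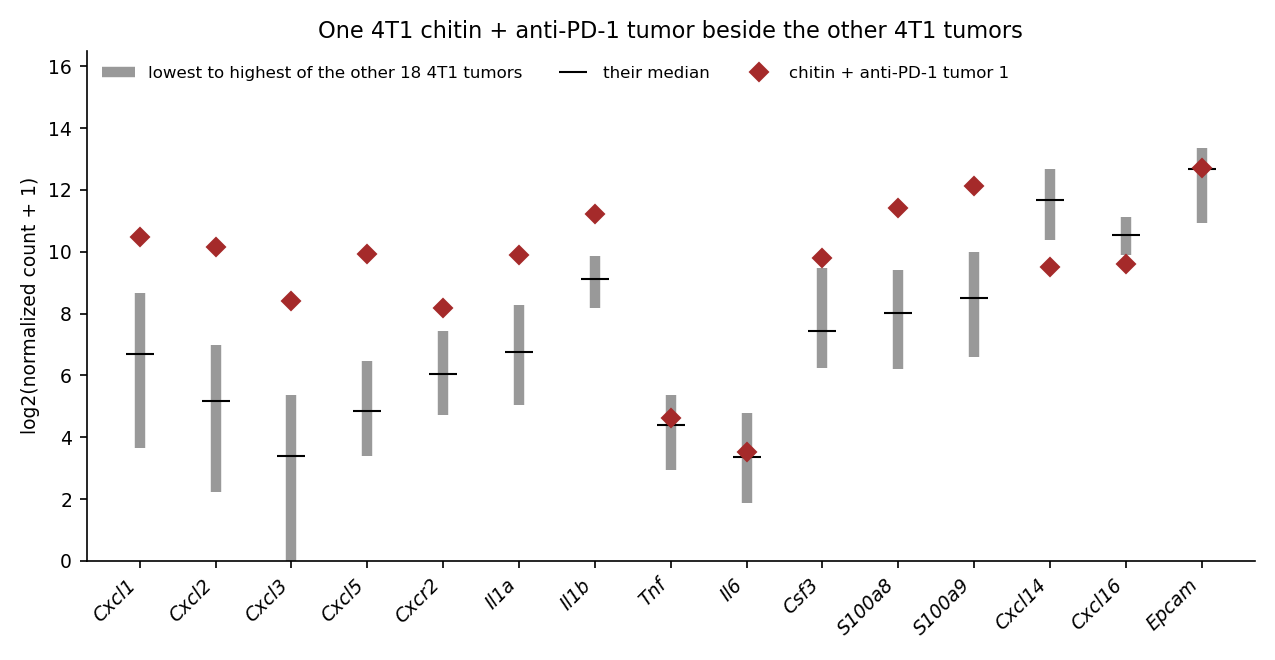
Grey bars span the lowest to the highest of the other 18 4T1 tumors, black lines are their medians, and red diamonds are chitin + anti-PD-1-treated tumor 1, on the log2(normalized count + 1) scale. All 4 members, Il1a, Il1b, Csf3, S100a8, S100a9 and Cxcr2 lie above the bars, Tnf, Il6 and Epcam inside them, and Cxcl14 and Cxcl16 below.

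Within a treatment group, the members varied more between tumors than most genes. The within-group SD in 4T1 was 0.88 VST units for Cxcl1, 0.82 for Cxcl2, 0.74 for Cxcl5 and 0.55 for Cxcl3, against a median of 0.19 over all genes. Of all genes, 95.7% (Cxcl3) to 99.1% (Cxcl1) had a smaller SD. Without combination-treated tumor 1 the SDs were 0.59, 0.51, 0.27 and 0.29.

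In 66cl4 the SDs were 0.47 for Cxcl5, 0.33 for Cxcl2, 0.25 for Cxcl3 and 0.23 for Cxcl1, against a median of 0.11, and 92.1% (Cxcl1) to 98.8% (Cxcl5) of genes had a smaller one. On the VST scale Cxcl5 thus had the largest SD in 66cl4 and Cxcl1 in 4T1, which in each model is the gene with the highest level. That scale is compressed for low counts, so a gene with a higher level can show a larger SD on it. In normalized counts, 4T1 tumors ran from 3.74 to 1130 for Cxcl2 and from 11.5 to 1430 for Cxcl1.

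Many pairs of members rose and fell together from tumor to tumor, but not all, and the pairings were not tested for a difference between the models. Correlations were computed over the tumors of a model for 6 pairs of members and for each member with the mean of the neutrophil markers, 20 relations in all, with two-sided permutation tests adjusted over the 20. In 66cl4 (n = 20), the strongest pairs were Cxcl1 with Cxcl3 (r = 0.76, adjusted p = 0.0006, rho = 0.79, adjusted p = 0.0008) and Cxcl3 with Cxcl5 (r = 0.76, adjusted p = 0.0004, rho = 0.74, adjusted p = 0.00247). Without the 2 tumors farthest from the median of the first gene, r was 0.72 and 0.65.

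Cxcl2 stood apart in 66cl4. Its r was 0.15 with Cxcl5 (permutation test, adjusted p = 0.532, rho 0.11) and 0.38 with Cxcl3 (adjusted p = 0.111, rho 0.40), but 0.61 with Cxcl1 (adjusted p = 0.0109, rho 0.63). Cxcl1 and Cxcl5 had r = 0.72 (adjusted p = 0.000771, rho 0.67), and 0.69 without the 2 farthest tumors. Without the 2 farthest tumors, Cxcl1 with Cxcl2 had r = 0.54 and no longer passed (permutation test, adjusted p = 0.0545). For the 4 pairs that passed over all 66cl4 tumors, r was also taken from deviations around the treatment means. It was 0.81 (Cxcl1 with Cxcl3), 0.79 (Cxcl3 with Cxcl5), 0.68 (Cxcl1 with Cxcl5) and 0.64 (Cxcl1 with Cxcl2). These relations were thus also present within treatment groups.

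In 4T1 (n = 19) all 6 pairs had r from 0.77 to 0.92 with adjusted permutation p from 0.0004 to 0.0115, but rho ran from 0.45 to 0.75. Combination-treated tumor 1 was among the 2 farthest tumors for each pair. Without those 2, Cxcl2 with Cxcl3 kept r = 0.76 (adjusted p = 0.0074) and Cxcl3 with Cxcl5 0.60 (0.0438), while Cxcl1 with Cxcl3 had 0.39 (0.214) and Cxcl1 with Cxcl5 0.21 (0.5), so that their linear relations rest on those tumors. Cxcl1 with Cxcl2 and Cxcl2 with Cxcl5 had 0.55 each (adjusted p = 0.0545). The rank correlation over all 19 tumors passed for Cxcl1 with Cxcl3 (rho = 0.58, adjusted permutation p = 0.0268). It also passed for Cxcl2 with Cxcl3 (0.75, 0.00247), Cxcl2 with Cxcl5 (0.59, 0.0255) and Cxcl1 with Cxcl2 (0.57, 0.03). It did not pass for Cxcl3 with Cxcl5 (0.49, 0.0664) or Cxcl1 with Cxcl5 (0.45, 0.096).

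With the neutrophil marker mean, r in 4T1 was 0.45 for Cxcl1, 0.66 for Cxcl2, 0.68 for Cxcl3 and 0.70 for Cxcl5, the last 3 with an adjusted permutation p of 0.0115. Without the 2 farthest tumors these became -0.15, 0.28, 0.19 and 0.31, and none passed, so that the relation rests on those tumors. In 66cl4, r ran from 0.20 (Cxcl2) to 0.44 (Cxcl5, adjusted permutation p = 0.0725), and none passed. The rank correlation of Cxcl5 there was 0.61 (adjusted permutation p = 0.0173).

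**Figure D5:**
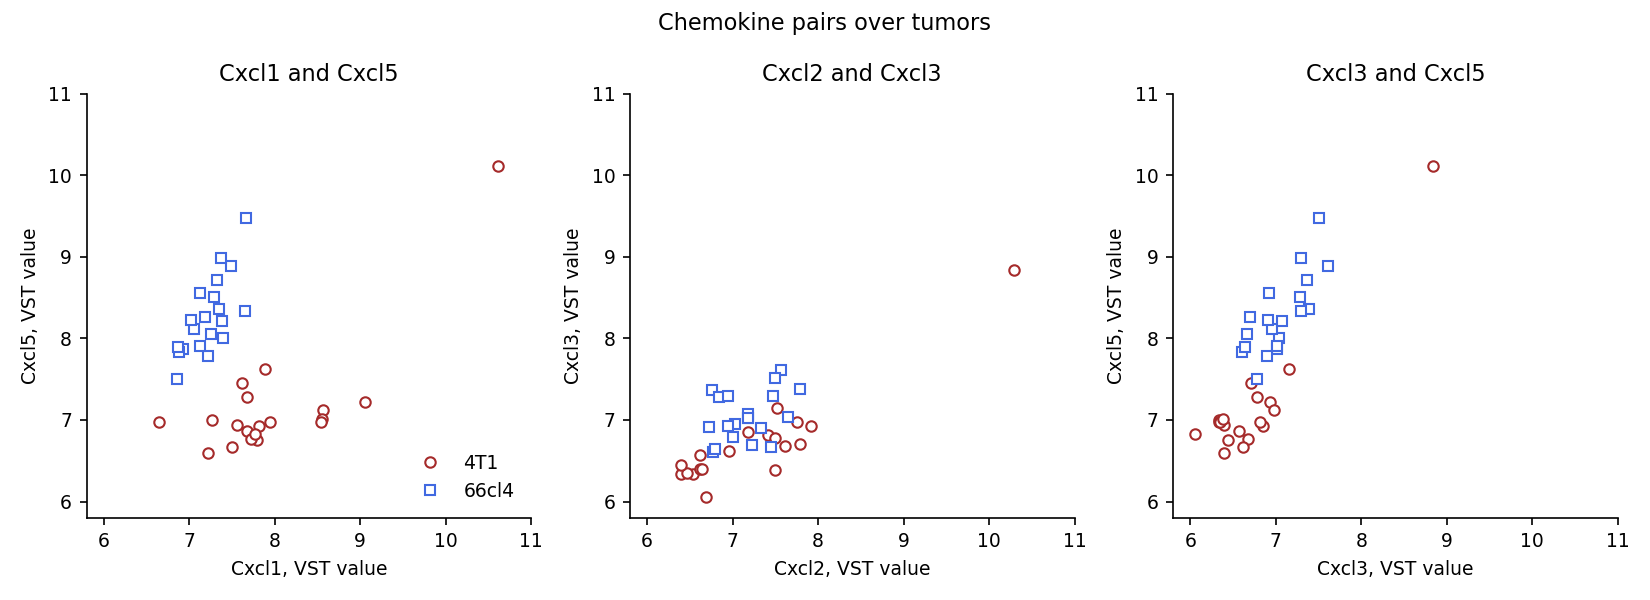
Each symbol is a tumor (red circles 4T1, blue squares 66cl4), with the VST values of a pair of members on the axes. In 66cl4, Cxcl5 rises with Cxcl1 and with Cxcl3, whereas in 4T1 a single tumor at the upper right sets much of the relation of Cxcl1 with Cxcl5.

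Over all 39 tumors, with each value taken as the deviation from its group mean, the genes most alike to a member included other members, but mostly less so without chitin + anti-PD-1-treated 4T1 tumor 1. For Cxcl1 the nearest of all genes were Cxcl2 (r = 0.86) and Cxcl3 (0.84), followed by Rhov (0.83), Kcmf1 (0.82) and Hcar2 (0.82). Cxcl2 was nearest to Cxcl1 (0.86) and Hilpda (0.86), and then to Hcar2 (0.83), Cxcl3 (0.83) and Osm (0.82). Hilpda encodes a hypoxia-inducible lipid droplet protein, and Osm the cytokine oncostatin M.

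Cxcl3 was nearest to Cxcl5 (0.88), Cxcl1 (0.84), Cxcl2 (0.83), Ackr3 (0.77) and Stfa2l1 (0.77). Cxcl5 was nearest to Cxcl3 (0.88), Hdc (0.77), Cxcl1 (0.74), Cops7b (0.74) and Nrxn2 (0.73). Without that combination-treated tumor, over 38 tumors, Cxcl3 and Cxcl5 still led each other's lists or stood next to the top (0.69), but the other members were farther down. For Cxcl1, whose nearest gene became Kcmf1 (0.79), Cxcl2 was in place 10 (0.70), Cxcl3 in place 61 (0.62) and Cxcl5 in place 1065 (0.38). For Cxcl2, Cxcl5 was in place 1966 (0.28). In the 20 66cl4 tumors alone, Cxcl3 and Cxcl5 were in places 2539 (0.32) and 4926 (0.14) for Cxcl2. There, Cxcl5 was in place 5 for Cxcl3, and Cxcl3 in place 15 for Cxcl5 (0.79). In the other 18 4T1 tumors alone, Cxcl5 was in place 236 for Cxcl3, and Cxcl3 in place 126 for Cxcl5 (0.61). Over the 38 tumors of both models without that 4T1 tumor, Cxcl2 stood nearest to Hilpda (0.84), Trem1 (0.77) and Ier3 (0.77). These values are given as descriptions, with no test.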

How the data were processed

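The table holds RNA-seq values of 39 of the 40 labelled primary tumors, made by the authors, who, per the labels and methods, aligned reads to mm10 with HISAT2, counted them per gene with strand information, kept genes with more than 10 reads in enough tumors and applied the variance-stabilizing transformation of DESeq2. The deposited values are therefore on a log2-like scale, and the annotation and tool versions are not given in the sources used here. The lowest value, 6.05, is shared by all 39 tumors and stands for 0 reads. With it the transformation was inverted, which gave whole reads for 100% of values within 0.001 reads, from 5105898 to 14800352 reads per tumor (median 6590274). Counting error is large for members with few reads, and SDs between tumors cover it. Nothing in the labels says whether tumors of a group came from separate litters or days.

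The members and gene lists were chosen with earlier results of these data known. Comparisons of VST values used limma (3.58.1, R 4.3.3; mean-variance trend, Benjamini-Hochberg over 14318 genes, threshold 0.05), within a model over its 4 groups and between models over all 8. Correlations used two-sided permutation tests with 100000 resamples in scipy 1.17.1. The steps were tested on simulated data, in which 200 genes changed by 0.5 were recovered at 93.5% between models, 45% for chitin in 4T1 and 87% for chitin in 66cl4. These genes were drawn at random from all genes, each simulated with its own SD. The members had larger SDs than most genes, so these rates do not apply to them. Alternatives were no trend, leaving out the lowest-mean 25% of genes, log2(normalized count + 1), limma-voom, tumor weights, the tumor number as a block, only the groups compared and leaving out each tumor. Equal depth, the shorter Cxcl2 length, and lists and nearest genes without 1 tumor were chosen after seeing the data.

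The genes named are the members, fixed genes of the receptor, inducer, decay and growth factor lists, the 3 of each list with the smallest p between models, and the 5 genes most alike to each member. Genes named for combination-treated 4T1 tumor 1 beyond these were chosen after their values were seen. Positions and lengths are from GENCODE M21, promoters from RefSeq GRCm38.p6, read with biopython 1.88. Python 3.11.15 with numpy 2.4.6, pandas 2.3.3 and matplotlib 3.10.9 did the rest. Whether tumor numbers pair the groups was checked, and the median pair of tumors with the same number showed no shared deviation. A median cannot exclude pairing of single tumors. Protein and flow cytometry data were not analysed here.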

Additional observations from a re-analysis of the deposited data

Results flagged for a closer look

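Of 32 combinations of a member and a group of 4 or 5 tumors, 6 held a tumor far from the others of its group by Dixon's gap criterion, which chance alone meets in about 1 in 20 groups (a share of 0.05). In 4 of them it was chitin + anti-PD-1-treated 4T1 tumor 1, with VST values of 10.61 for Cxcl1 (7.50 to 7.89 in the other 4 tumors), 10.29 for Cxcl2 (6.96 to 7.79), 8.84 for Cxcl3 (6.62 to 7.15) and 10.11 for Cxcl5 (6.67 to 7.62). In anti-PD-1-treated 4T1 tumor 2, Cxcl2 stood above the others at 7.92 (6.40 to 6.62). In untreated 4T1 tumor 5, Cxcl2 stood below the others at 6.69 (7.42 to 7.50), from 13.1 normalized counts. No 66cl4 tumor was far from its group for any member by this criterion.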

How the results depend on the processing

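The higher Cxcl1 in 4T1 and the higher Cxcl3 and Cxcl5 in 66cl4, over all treatments, kept direction and call under every alternative that gave them a value. Leaving out the lowest-mean 25% of genes removed Cxcl2 and Cxcl3, which have no value there. Leaving out each tumor in turn gave 0.61 to 0.82 for Cxcl1, -0.45 to -0.31 for Cxcl3, -1.27 to -1.05 for Cxcl5 and -0.054 to 0.154 for Cxcl2. The uncalled Cxcl2 difference also turned sign with log2(normalized count + 1), to -0.195, and with limma-voom, to -0.061. Low read numbers limit Cxcl3 in 4T1, and untreated 4T1 has 4 tumors. The cause of each change below was not tested.

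In untreated tumors, Cxcl1 passed with tumor weights (0.792, adjusted p = 0.0331 in limma) and with only the groups compared (0.730, adjusted p = 0.0115), and Cxcl2 turned sign with tumor weights (0.058) and at equal read depth (0.022). Tumor weights called 1004 genes for the chitin effect between models, Cxcl3 among them (0.753), 297 for chitin-containing 4T1 groups, 960 for anti-PD-1 in 4T1 and 185 for chitin-containing 66cl4 groups. With them Cxcl3 turned sign for anti-PD-1 (-0.108) and Cxcl1 for the combination (-0.200) in 4T1. Without the 25% of genes with the lowest mean, 8 genes were called for the chitin effect between models and 6 for chitin-containing 66cl4 groups. Not divided by length, the share of Cxcl1 in 66cl4 was 14.6%, and with the shorter Cxcl2 transcript that of Cxcl2 was 16.7%. Without the 2 farthest tumors, r with the neutrophil mean turned sign for Cxcl1 in 4T1 (-0.154) and Cxcl2 in 66cl4 (-0.004).

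Tumors with the same number did not deviate together in the median pair (r -0.02 in 4T1 and 0.03 in 66cl4). Single pairs ran from -0.39 to 0.45 and from -0.3 to 0.54, and pairs with different numbers from -0.57 to 0.68 and from -0.49 to 0.53. With the number as a replicate block, Cxcl2 in untreated tumors (0.009) and Cxcl5 for anti-PD-1 in 4T1 (0.033) turned sign. The block gave 104 calls for the chitin effect between models, 1 for the 4T1 combination, 16 for chitin-containing 66cl4 groups, 2 for chitin and 7 for the combination in 66cl4.

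Leaving out each tumor in turn gave, in untreated tumors, 0.591 to 0.882 for Cxcl1, -0.097 to 0.183 for Cxcl2 and -0.799 to -0.546 for Cxcl3. The count for the chitin effect between models ran from 0 (without untreated 4T1 tumor 5) to 677 (without anti-PD-1-treated 4T1 tumor 2). In 4T1, chitin-containing groups had 0 to 1 calls (Cxcl1 -0.113 to 0.356, Cxcl5 -0.011 to 0.420) and anti-PD-1 0 to 80 (Cxcl3 -0.146 to 0.107, Cxcl5 -0.094 to 0.056). Cxcl3 ran from -0.055 to 0.198 with chitin there, and Cxcl1 from -0.455 to 0.323 with both agents. In 66cl4, chitin-containing groups had 0 to 269 calls and chitin 0 to 25, both highest without untreated tumor 3, and the combination had 0 to 3 (Cxcl5 -0.322 to 0.101). With anti-PD-1 there, Cxcl2 ran from -0.160 to 0.098, Cxcl3 from -0.067 to 0.139 and Cxcl5 from -0.410 to 0.013.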
